A study of Mus musculus with 38 samples.

Results

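Expression of 10 genes that act on stored fat was followed in brown adipose tissue of C57BL/6J mice, an inbred laboratory strain. The genes were Pnpla2, Lipe, Mgll, Abhd5, G0s2, Plin1, Plin2, Plin4, Plin5 and Cidec, found by their symbols among the 29411 gene names of the array. Plin2 was listed under its older name Adfp. All 10 were present, all 10 passed the filter on dim probes that left 21625 genes for testing, and each was well above background on 38 of 38 arrays.

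Weaned mice 3 to 4 weeks old were divided into 5 groups of 30. LFC mice ate a low fat diet with 10% of calories from fat, and HFC mice ate a high fat, high sucrose diet with 60% of calories from fat. HF5, HF20 and HF75 mice ate the HFC diet and also received 5, 20 or 75 µg of Kal-1, an ethano-botanical formulation in water, so no group received Kal-1 on the low fat diet. LFC and HFC had 10 arrays each, at Days 6, 10 and 14 and at Weeks 0, 3, 6, 9, 12, 15 and 18, where Week 0 is also 14 days on diet. The 3 doses had 6 arrays each, at Weeks 3 to 18. Each group had 1 array at each labelled time point. The time points therefore served as replicates, and the p-values rest on the spread over time points. In fits of Weeks 3 to 18 it was estimated once per gene over all 5 groups, not from the 2 groups compared. The design text names 3 biological replicates, and 5 mice of each group were killed every 3 weeks. Whether the RNA of an array came from 1 mouse or from several is not given in the sources used here.

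Brown adipose tissue burns fatty acids to make heat, and its cells hold many small lipid droplets from which those fatty acids are drawn. Pnpla2 (ATGL) removes the first fatty acid from a triglyceride, Lipe (hormone-sensitive lipase) acts on the diglyceride, and Mgll (monoglyceride lipase) on the monoglyceride. Abhd5 (CGI-58) activates Pnpla2, and G0s2 inhibits it. The perilipins Plin1, Plin2, Plin4 and Plin5 coat the droplet. Plin1 holds Abhd5 away from Pnpla2 until the cell is stimulated, Plin2 is found on droplets of most cell types, Plin4 coats newly formed droplets of fat cells, and Plin5 is found in tissues that oxidise much fat, where it brings droplets and mitochondria together. Cidec (FSP27) sits where droplets touch and promotes their fusion into larger ones.

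A level below is the log2 of the scanner's processed signal minus the 75th percentile of that array, so 0 is the level of the probe at that percentile. A difference of 1 between groups is a factor of 2. Where a gene had more than 1 probe, the probe with the highest mean was used, and levels of different genes were not ranked because probes differ in brightness. The arrays fell into 2 classes of brightness. In 11 arrays the 75th percentile of the raw signal lay between 625.4 and 1209, and in the other 27 it lay between 35.1 and 430. The bright arrays were HFC at Day 10 and Week 3, LFC at Weeks 0, 3, 9 and 12, HF20 at Weeks 3, 6, 12 and 15 and HF75 at Week 3. None was of HF5.

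The HF75 array of Week 3 stood apart from all others. Its mean over 10 brown adipocyte markers was -2.88, against 0.87 to 4.01 on the other 37 arrays, although 8 of the 10 markers were well above background on it. Ucp1, the protein that uncouples brown fat mitochondria, was at -3.08 there and at 3.38 or more elsewhere, and Cidea was at -1.78 and at 5.58 or more elsewhere. Its mean over 8 macrophage markers, 0.92, was the highest of all arrays (-1.93 to 0.33 elsewhere). Its mean over 6 erythroid markers, -1.68, was the lowest (-1.15 to 3.80 elsewhere). The means of skeletal muscle, lymphocyte and endothelial markers lay within the range of the other arrays. Cox8b was at -2.01 there and at 4.04 or more elsewhere, and Cox7a1 at -0.33 and at 4.41 or more elsewhere. Elovl3, Ppargc1a and Zic1 were also lower there than on every other array, but Dio2, Prdm16 and Ebf2 were not. Dio2, at -4.197, was close to its lowest value elsewhere, -4.202 (median elsewhere -1.36). Prdm16 was at 1.67 (median elsewhere 1.67) and Ebf2 at 0.66 (median elsewhere -0.27). The mean of 7 adipocyte markers was 2.78, within the 1.56 to 4.70 found elsewhere. Ucp1 and Cidea were well above background on 38 of 38 arrays. Their levels on this one array go against its brown adipose label, while those of Prdm16 and Ebf2 do not. Counts of genes passing among the doses and in HF75 against HF20, and differences of some genes, are also given without it. Where only 1 value of HF75 is given, it includes this array.

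The probes below show what was measured for each gene. They are the last 30 of the 60 bases of the probe used for each gene, as the scanner files give them, with the polyadenylation signal AATAAA in capitals.
Pnpla2: agcagatctAATAAAagccacagctcagct
Lipe: ccccaaaagaccacatcgcccacagcagag
Mgll: ctacagctcaccgtAATAAAaaccacgtgc
Abhd5: gagctattacatttttagtgactagtcagg
G0s2: ggagctgatccctctggccaaggagatgat
Plin1: gccgcggtcgactctcctttctcgtgggca
Plin2: ctaaaagctcagatgcacttacagtcttgt
Plin4: caggtctggctccctatactgctcatggta
Plin5: tacctgggggctcagaactcctagaatcaa
Cidec: gggaaaggcatgcagctgcctctcttgttc
The probes of Pnpla2 and Mgll hold that signal, which in mRNA lies shortly before the 3′ end. Of all probes on the array 7.5% hold it. The probes of the other 8 genes do not hold these letters. GC content of the 10 whole probes lay between 35% and 55%, with a median of 43.3% over all genes tested.

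Most of the 10 genes had a higher mean on bright than on dim arrays. G0s2 averaged 4.74 on the bright arrays and 1.25 on the dim arrays, a difference of 3.49. The corresponding difference was 3.40 for Plin1, 2.61 for Plin5, 2.31 for Plin4, 1.43 for Lipe, 0.99 for Abhd5, 0.91 for Pnpla2 and 0.79 for Cidec. Plin2 did not separate the classes (0.01), and Mgll was lower on bright arrays (-0.94). The median over all genes tested was -0.30, and G0s2, Plin1, Plin5 and Plin4 lay at percentiles 99.8, 99.7, 98.7 and 97.9 of all genes. Marker lists of cell types moved with brightness too. Bright minus dim was -2.69 for the mean of 5 endothelial markers, -2.91 for that of 6 erythroid markers and 1.35 for that of 7 adipocyte markers. The part of brightness, and of the amount of other cell types, in the differences below was not tested. In whole tissue, fewer cells of a type and less RNA per cell cannot be told apart.

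Bright arrays also reached the top of the scanner's range. Of 379 values of the 10 genes, 49 were saturated, on 11 arrays that were all bright. Cidec was saturated on 10 of them, Pnpla2 and Plin1 on 9, Plin4 on 8, Plin2 on 7, Mgll on 4 and Plin5 on 2. Lipe, Abhd5 and G0s2 were never saturated. A saturated value is a lower bound, so a bright array can understate these genes. The Plin4 value of HFC at Day 10 was flagged as an outlier by the scanner software and was left out, so Plin4 has 9 HFC values.

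**Figure D1:**
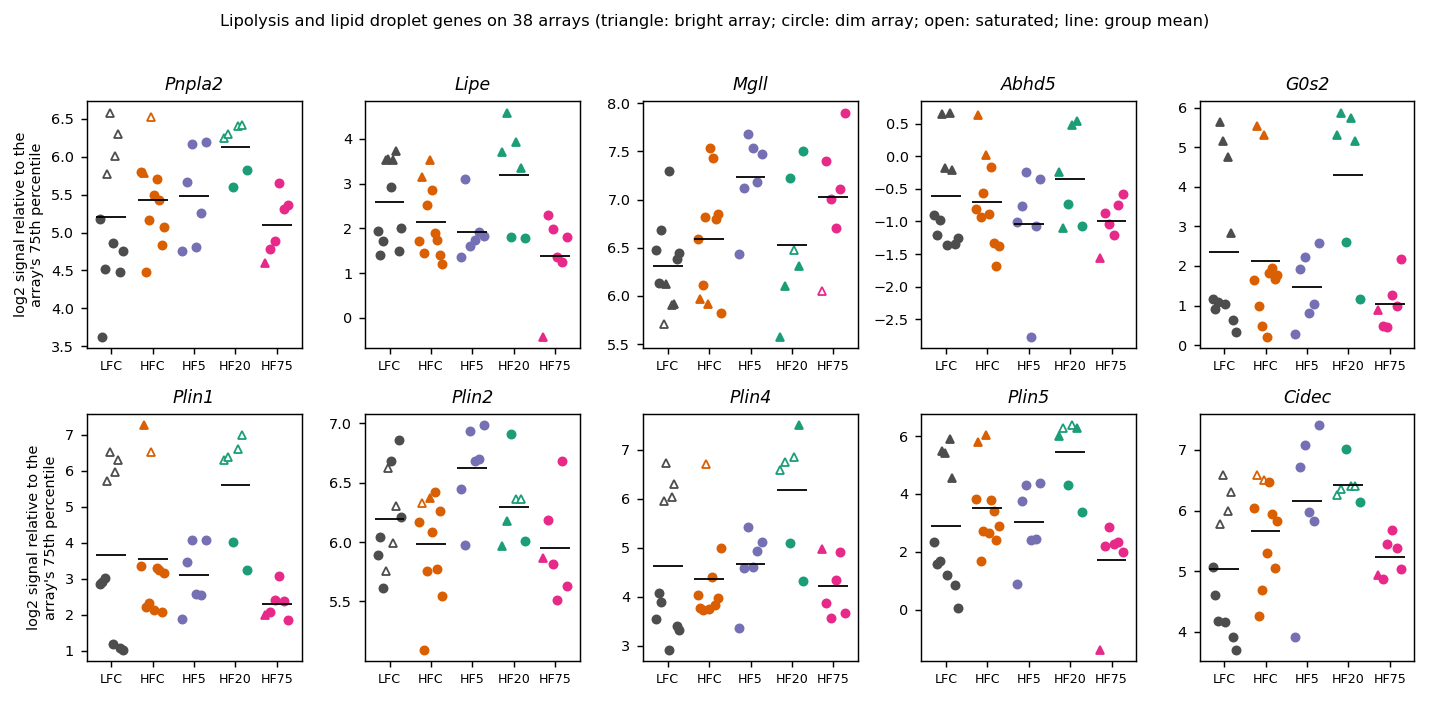
Level of each of the 10 genes (log2 signal relative to the 75th percentile of the array, vertical axis) on every array, by group (horizontal axis). Triangles are bright arrays, circles dim arrays, open symbols saturated values and short lines group means. For G0s2, Plin1, Plin4 and Plin5 all triangles of LFC, HFC and HF20 lie above all circles of their group, while the triangle of HF75 is the lowest of its group for Plin5, at -1.37.

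**Figure D2:**
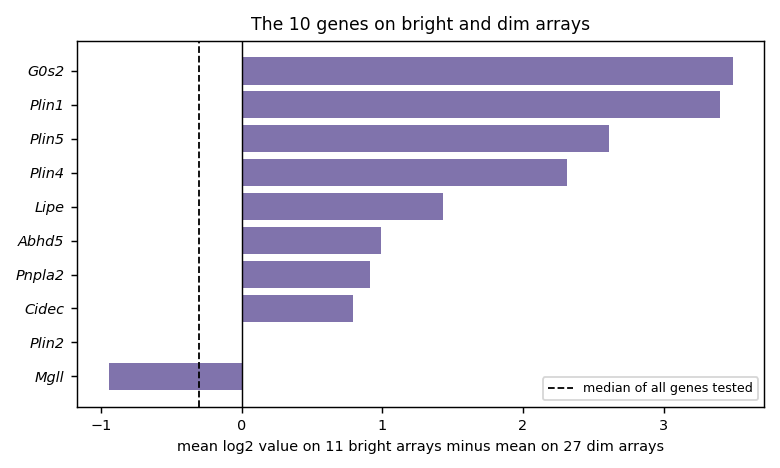
Mean of 11 bright arrays minus mean of 27 dim arrays for each gene (log2), with the median of all 21625 genes tested, -0.30, as a dashed line. G0s2 (3.49) and Plin1 (3.40) have the longest bars, Plin2 (0.01) has almost none and Mgll (-0.94) points to the left of 0.

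The first question was whether the high fat, high sucrose diet changed these genes against the low fat diet. With limma over 10 time points, 0 of the 10 genes passed an adjusted p of 0.05, and 0% of all genes did. At an unadjusted p under 0.05 the counts were 0 of the 10 and 1474 (6.82%) of all genes. Over Weeks 3 to 18 alone, 0 of the 10 passed and 0.00925% of all genes, with 3008 genes at an unadjusted p under 0.05.

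Cidec had the smallest p of the 10 in the comparison of diets. In LFC its level ranged from 3.71 to 6.59 with a median of 4.84, and in HFC from 4.26 to 6.59 with a median of 5.89. It was higher in HFC at 7 of 10 time points, and the mean difference was 0.64 (SE 0.31, limma p 0.066, adjusted p 0.652). Plin5 ranged from 0.08 to 5.90 in LFC (median 2.01) and from 1.68 to 6.04 in HFC (median 3.14). It was higher in HFC at 6 of 10 time points by a mean of 0.61 (SE 0.62). The 2 groups overlapped widely for both genes.

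Differences at single time points ran with the brightness of the 2 arrays compared. At Day 10 HFC was bright and LFC dim, and Plin5 was 4.21 higher in HFC, Plin1 4.35 and G0s2 4.61. At Week 0, also after 14 days on diet, LFC was bright and HFC dim, and the difference was -2.77 for Plin5, -3.38 for Plin1 and -5.15 for G0s2. At Day 14, with both arrays dim, the differences were -0.01 for Plin5, -0.80 for Plin1 and -0.09 for G0s2.

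At 6 time points both arrays were in 1 class of brightness: Day 6, Day 14 and Weeks 3, 6, 15 and 18. Over these, Plin5 was higher in HFC at 5 of 6 by a mean of 1.32 (SE 0.35, limma p 0.00594, adjusted p 0.838). The 6 differences ranged from -0.01 at Day 14 to 2.81 at Week 18. Cidec was higher at 5 of 6 by 0.90 (SE 0.30, p 0.0196, adjusted p 0.838), from -0.09 at Week 3 to 2.12 at Week 18. Plin1 was 0.63 and Plin4 0.57 higher, with SE 0.36 and 0.26. At Week 3 Cidec, Plin1 and Plin4 were saturated on both arrays. Their differences there (-0.09, 0.01 and -0.02) are therefore between 2 lower bounds and do not measure a difference in expression. No gene of the array passed the adjustment in this fit, which was chosen after the data had been seen.

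Lipe was lower in HFC at 9 of 10 time points, with Day 10 as the exception, by a mean of -0.43 (SE 0.32, adjusted p 0.665). Over Weeks 3 to 18 alone its difference was -0.77 (SE 0.49, adjusted p 0.430). Within the 6 time points of 1 brightness class it was lower at 6 of 6, by -0.24 (SE 0.17, adjusted p 0.838). Pnpla2 differed by 0.22 (SE 0.27) and Mgll by 0.28 (SE 0.24). Abhd5, the co-activator of Pnpla2, differed by -0.10 (SE 0.28) and G0s2, its inhibitor, by -0.22 (SE 0.73). Among the remaining coat proteins Plin1 differed by -0.10 (SE 0.69), Plin2 by -0.22 (SE 0.18) and Plin4 by -0.32 (SE 0.44).

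**Figure D3:**
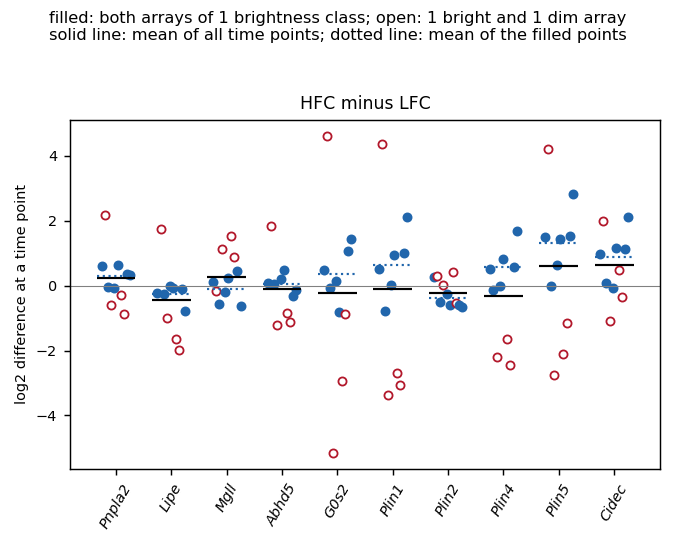
HFC minus LFC at each time point for each gene (log2). Filled points have both arrays in 1 class of brightness and open points 1 bright and 1 dim array, the solid line is the mean of all points and the dotted line the mean of the filled ones. For Plin5 the filled points average 1.32 against 0.61 over all, and for Lipe all 6 filled points lie below 0.

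Levels did not show a common course over 18 weeks. In the fit with days on diet as a number, 0 of the 10 genes passed, against 1.41% of all genes. By estimate 8 of the 10 fell and 2 rose, with a median of -0.02 log2 per week, against 0.004 over all genes. The slopes ranged from -0.09 log2 per week for Plin1 (SE 0.06, adjusted p 0.469) to 0.02 for Plin2 (SE 0.02, adjusted p 0.623). Abhd5 had the smallest p, with a slope of -0.04 (SE 0.02, p 0.0907, adjusted p 0.323). This fit has no block for time point, so the 2 arrays of a time point count separately. For the product of diet and day, which asks whether the diet difference itself moved with time, 0 of the 10 passed and 0% of all genes, with 3283 genes and 0 of the 10 at an unadjusted p under 0.05.

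**Figure D4:**
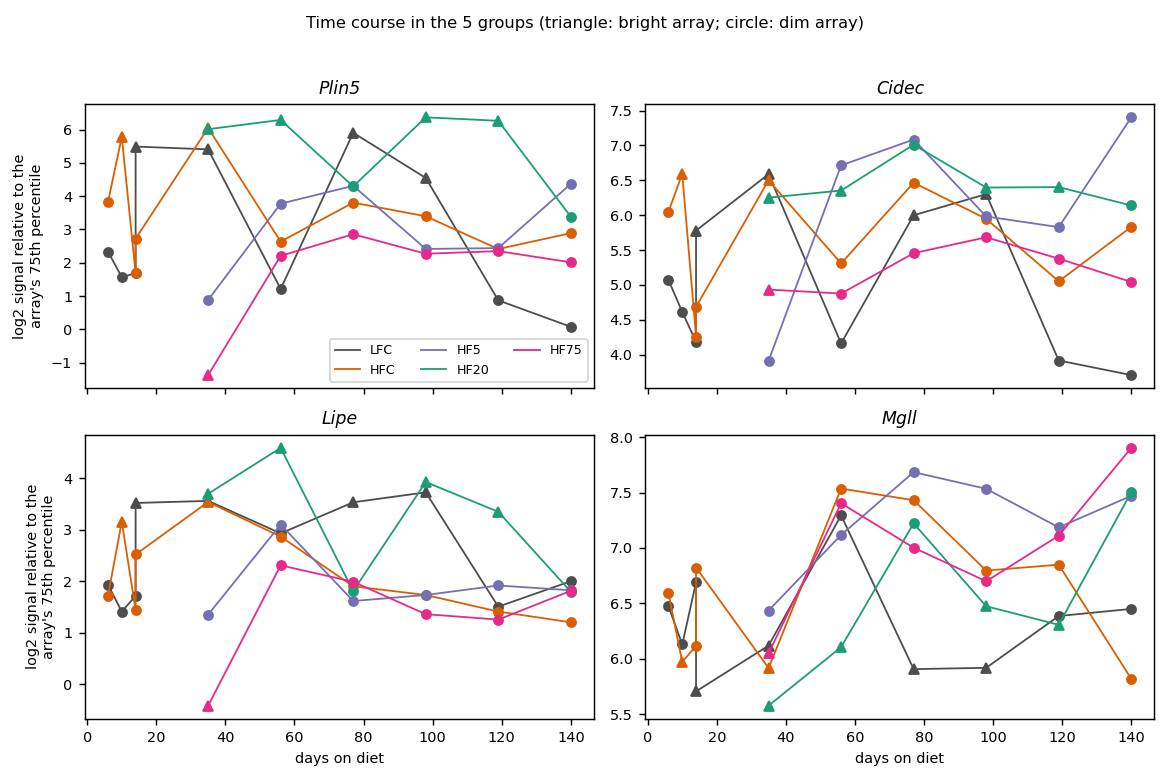
Levels (log2, relative to the 75th percentile of the array) of Plin5, Cidec, Lipe and Mgll against days on diet in the 5 groups, 1 array per point. Plin5 of LFC jumps between 5.90 at Week 9 and 0.08 at Week 18, and HF75 starts at -1.37 at Week 3 and then stays between 2.01 and 2.86.

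The next question was whether Kal-1 given with the high fat diet changed these genes against that diet alone. HFC is the control of all 3 comparisons, so they share its 6 arrays. In HF5 0 of the 10 genes passed, as did 0% of all genes. Plin2 alone of the 10 had an unadjusted p under 0.05 (1193 genes in all). Its level in HF5 ranged from 5.98 to 6.98 with a median of 6.69, and it was higher than in HFC at 5 of 6 time points by 0.55 (SE 0.23, p 0.028, adjusted p 0.814). With quantile normalization the difference was 0.19 (SE 0.18, adjusted p 0.931). At the 5 time points of 1 brightness class Cidec (0.88, SE 0.30) and Plin4 (0.75, SE 0.25) were higher at 5 of 5, with adjusted p of 0.288 and 0.289.

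In HF20 0 of the 10 passed and 0% of all genes, although 7086 genes (32.8%) had an unadjusted p under 0.05. Of the 10, G0s2 (2.18, SE 0.88), Plin1 (2.19, SE 0.89), Plin4 (1.57, SE 0.64) and Lipe (1.09, SE 0.49) did, with adjusted p from 0.123 to 0.135. Their sizes came from 3 time points. At Weeks 6, 12 and 15, when HF20 was bright and HFC dim, G0s2 was 5.66, 3.79 and 3.47 higher and Plin1 4.24, 3.37 and 4.91 higher. At Weeks 3, 9 and 18, with both arrays in 1 class, G0s2 differed by -0.01, 0.79 and -0.59 and Plin1 by -0.23, 0.73 and 0.11, and the means were 0.06 (SE 0.44) and 0.21 (SE 0.40). Plin1 was saturated on both arrays of Week 3, so its -0.23 there is between 2 lower bounds. Without Week 3, where both arrays were bright, 3 of the 10 and 3344 of all genes passed: Plin4 (1.91, adjusted p 0.0487), G0s2 (2.62) and Plin1 (2.67), both at 0.0492.

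In HF75 0 of the 10 passed and 0% of all genes, with 0 of the 10 and 2003 genes at an unadjusted p under 0.05. Here both arrays were in 1 class at all 6 time points. Plin5 was lower than in HFC at 6 of 6, by -1.81 (SE 0.95, p 0.0705, adjusted p 0.556). The difference was -7.42 at Week 3 and then, in order of time, -0.43, -0.95, -1.12, -0.06 and -0.88. Week 3 alone therefore set most of the size. Without Week 3 in all groups the difference was -0.69. Without the HF75 array alone, and with the HFC array of Week 3 kept, it was -1.02 (adjusted p 0.837). The other 9 genes differed by -1.10 (Plin1) to 0.30 (Mgll). Without Week 3 the difference was -0.42 for Plin1, -0.43 for Cidec and -0.08 for Lipe. Cidec and Plin1 were lower at 5 of 6 time points, with Week 15 as the exception for both.

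The 3 doses were then compared among themselves. In the test over HF5, HF20 and HF75, 4 of the 10 genes passed, against 13.7% of all genes. They were G0s2 (adjusted p 0.0368), Plin5 (0.0386), Plin1 (0.0404) and Lipe (0.041). Plin4 (0.065), Plin2 (0.096), Pnpla2 (0.106), Cidec (0.143), Mgll (0.194) and Abhd5 (0.364) did not pass. With the brightness class as a term in the model 0 of the 10 and 0 genes of all passed, with a smallest adjusted p of 0.35 among the 10. Without the HF75 array of Week 3 the counts were again 0 and 0, with a smallest adjusted p of 0.0673.

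In the pairs of doses, calls were made in HF75 against HF20. Of the 10 genes 6 passed as lower in HF75, against 13% of all genes lower and 12.9% higher (25.9% in both directions). HF20 against HF5 had 0 of the 10 and 0% of all genes, with 6 of the 10 and 7785 genes at an unadjusted p under 0.05. These 6 were G0s2 (2.84, adjusted p 0.0664), Plin1 (2.49), Plin5 (2.40), Plin4 (1.51) and Lipe (1.27), higher in HF20, and Mgll (-0.71). HF75 against HF5 had 0 of the 10 and 0% of all genes, with 1 of the 10 (Plin2) and 507 genes at an unadjusted p under 0.05. HF20 had 4 bright arrays of 6, HF75 had 1 and HF5 had 0. The median of all genes was 0.27 higher in HF75 than in HF20, and the median over the 10 was -1.50.

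Among the coat proteins, Plin5 ranged from -1.37 to 2.86 in HF75 (median 2.24) and from 3.38 to 6.37 in HF20 (median 6.14). It was lower in HF75 at 6 of 6 time points by -3.71 (SE 0.95, adjusted p 0.0161). Plin1 ranged from 1.86 to 3.07 in HF75 (median 2.22) and from 3.25 to 6.98 in HF20 (median 6.34), a difference of -3.29 (SE 0.89, adjusted p 0.0181), lower at 6 of 6. For these genes the groups did not overlap. Plin4 ranged from 3.56 to 4.97 in HF75 (median 4.10) and from 4.31 to 7.50 in HF20 (median 6.67), and was lower at 6 of 6 by -1.96 (SE 0.64, adjusted p 0.0301). Plin2, the coat protein of most cell types, gave -0.35 (SE 0.23, adjusted p 0.25) and was lower at 4 of 6.

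Cidec did not pass (-1.20, SE 0.49, adjusted p 0.0709), yet its groups did not overlap. It ranged from 4.88 to 5.68 in HF75 (median 5.21) and from 6.14 to 7.01 in HF20 (median 6.37), and was lower at 6 of 6 time points, with differences from -1.56 to -0.71. The SD of these 6 differences was 0.31, while the SE of the fit comes from the spread over all 5 groups. Cidec was saturated on 4 of the 6 HF20 arrays, so those values are lower bounds. The narrow HF20 range and the SD of 0.31 therefore cannot be read as the spread of expression. Of the 10 genes 3 (Plin1, Plin5 and Cidec) had every HF75 value below every HF20 value, against 3.78% of all genes. Every HF75 value above every HF20 value was found for 0 of the 10 and 0.911% of all genes.

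Among the lipases and their regulators, Pnpla2 ranged from 4.60 to 5.66 in HF75 (median 5.10) and from 5.60 to 6.42 in HF20 (median 6.27). It was lower at 6 of 6 by -1.03 (SE 0.37, adjusted p 0.0452, and 0.0572 when every probe of the array was tested). Lipe ranged from -0.42 to 2.31 in HF75 (median 1.58) and from 1.79 to 4.58 in HF20 (median 3.52), with a difference of -1.81 (SE 0.49, adjusted p 0.0178), lower at 4 of 6. G0s2, the inhibitor of Pnpla2, ranged from 0.46 to 2.18 in HF75 (median 0.95) and from 1.18 to 5.87 in HF20 (median 5.22), a difference of -3.26 (SE 0.88, adjusted p 0.0178), lower at 5 of 6. Abhd5 gave -0.65 (SE 0.43, adjusted p 0.25). Mgll was the only gene of the 10 with a higher mean in HF75 (0.50, SE 0.31, adjusted p 0.222).

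At Weeks 3, 9 and 18 both arrays were in 1 class. There Plin5 was lower by -7.38, -1.44 and -1.37 in that order, with a mean of -3.40 (SE 1.30), and Plin1 by -4.30, -1.62 and -1.39, with a mean of -2.43 (SE 0.70). Without Week 3, and so without the HF75 array that stood apart, the means of Weeks 9 and 18 were -1.40 for Plin5 and -1.50 for Plin1. Over the 3 weeks Cidec was lower by -1.32 (SE 0.39), Plin4 by -1.27 (SE 0.43), Pnpla2 by -0.94 (SE 0.44) and Plin2 by -0.52 (SE 0.42). Each of these 6 genes was lower at 3 of 3 time points, and each had an adjusted p of 0.699 or more. G0s2 was lower at 2 of 3, and Lipe at 1 of 3 (-4.11 at Week 3, with 0.18 at Week 9 and 0.02 at Week 18). With the brightness class as a term 0 of the 10 passed, and the difference was -2.16 for Plin5, -1.53 for G0s2, -1.43 for Plin1 and -0.52 for Cidec. Without the HF75 array of Week 3, 2 of the 10 passed, against 1963 genes (9.08%) of all. They were Plin5 (-2.93, adjusted p 0.0485) and G0s2 (-2.95, adjusted p 0.0498), with Plin1 at -2.96 (adjusted p 0.0507). The count was 0 of the 10 without Week 6, Week 12 or Week 15, each a week in which HF20 was bright and HF75 dim. Leaving out a week also removes arrays from the fit of every gene. No share of all genes is given for these fits, so the loss is not a result about the 10 genes alone. Its cause was not tested.

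Some markers of cell types differed between HF75 and HF20 as well, with the HF75 array of Week 3 included. Of all genes 13% passed as lower in HF75 and 12.9% as higher. The mean of 5 endothelial markers ranged from 3.85 to 4.82 in HF75 and from 0.90 to 4.79 in HF20, and 3 of the 5 passed as higher in HF75. The mean of 7 adipocyte markers ranged from 1.90 to 3.28 in HF75 and from 3.11 to 4.70 in HF20, with 4 of 7 lower. Of 10 brown adipocyte markers 4 were lower in HF75. The mean of 8 macrophage markers ranged from -1.41 to 0.92 in HF75 and from -1.44 to 0.12 in HF20, with 1 of 8 lower, near the share of all genes. Of 6 erythroid, 8 lymphocyte and 9 skeletal muscle markers 0 passed. More arrays were bright in HF20 than in HF75, and bright minus dim was -2.69 for the endothelial and 1.35 for the adipocyte mean. With the brightness class as a term 0% of all genes passed. The part of these markers in the result was not tested.

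**Figure D5:**
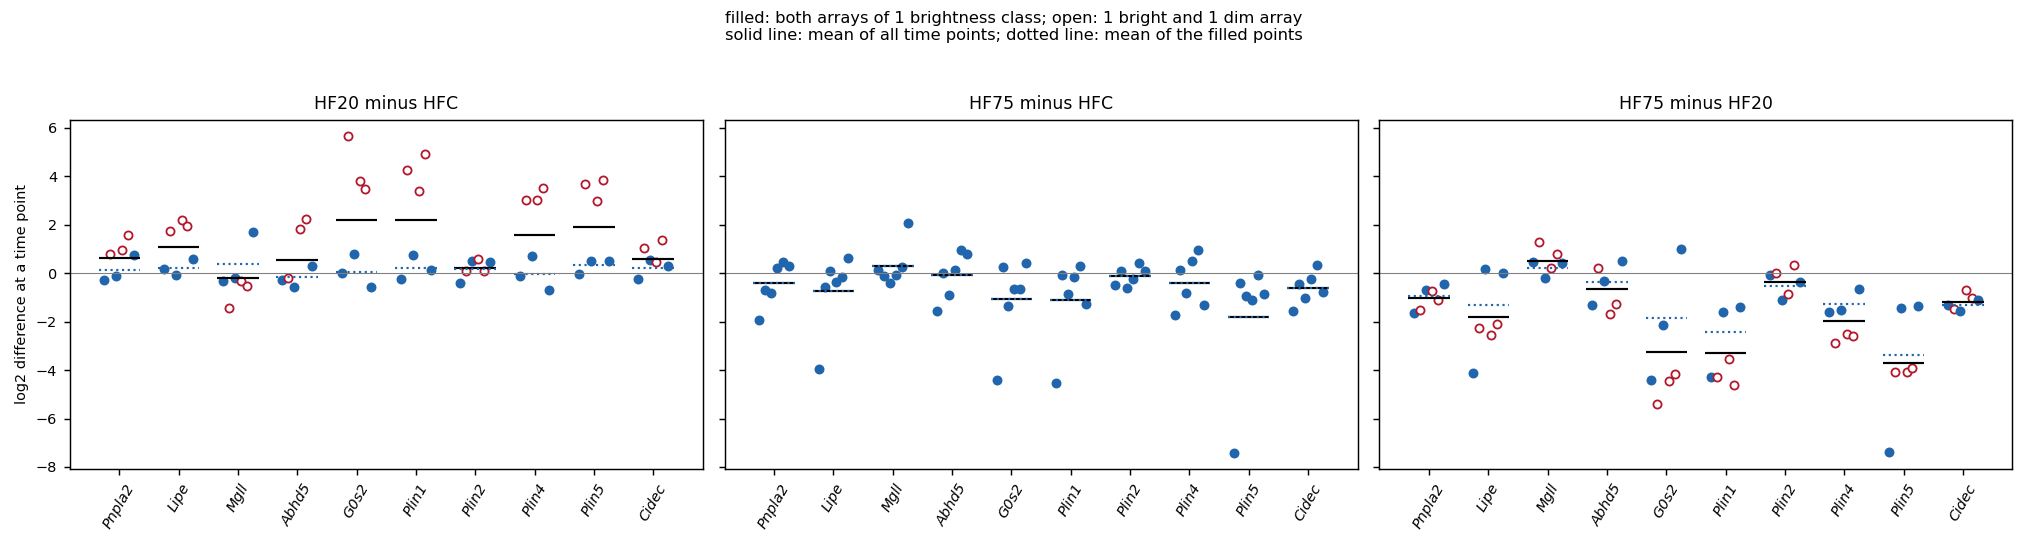
HF20 minus HFC, HF75 minus HFC and HF75 minus HF20 at each of Weeks 3 to 18 for each gene (log2, vertical axis). Filled points have both arrays in 1 class of brightness and open points 1 bright and 1 dim array, the solid line is the mean of all points and the dotted line the mean of the filled ones. For HF75 minus HF20 all 6 points of Plin5, Plin1, Plin4, Cidec and Pnpla2 lie below 0.

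A second probe existed for 4 of the 10 genes, and it did not always give the size of the first. Over 38 arrays the 2 probes correlated with r of 0.953 for Mgll, 0.868 for Lipe, 0.756 for Pnpla2 and 0.749 for Abhd5. The difference between bright and dim arrays was 2.32 for the second Pnpla2 probe against 0.91 for the first, 2.37 against 1.43 for Lipe, 2.12 against 0.99 for Abhd5 and -0.67 against -0.94 for Mgll. For HF75 against HFC the second probe gave -1.58 for Pnpla2, where the first gave -0.41, and -1.22 for Abhd5, where the first gave -0.10. For HF75 against HF20, fitted and adjusted over every probe, the second probe gave -3.13 for Pnpla2 (SE 0.70, adjusted p 0.016), -3.16 for Lipe (SE 0.64, adjusted p 0.0146) and -2.67 for Abhd5 (SE 0.56, adjusted p 0.0146), where the first gave -1.03, -1.81 and -0.65. For Abhd5 only the second probe passed. The first Pnpla2 probe was saturated on 9 arrays and the second on 1. The last 30 bases of the second Pnpla2 probe are given for comparison with the first, and they do not hold AATAAA.
Pnpla2, second probe: atctgccagtatctggtgatgagggccaag

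The 10 genes varied together across arrays to different degrees. These correlations share depth and brightness of the arrays and are given as a description. Among G0s2, Plin1, Plin4 and Plin5 the r of the 6 pairs over 38 arrays lay between 0.813 and 0.937, and between 0.614 and 0.911 once the mean of each brightness class had been subtracted. Mgll stood apart, with r from -0.516 to 0.312 with the other 9. Within classes of brightness all 45 pairs of the 10 genes had an r above 0, and those with Mgll lay between 0.141 and 0.49.

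Among 14755 genes well above background on at least 30 arrays, those most like each of the 10 were taken by the r within brightness classes. For Plin5 they were Ucp1 (0.967, and 0.62 without subtracting class means) and Coq10a (0.958). Without the HF75 array of Week 3 these values were 0.927 and 0.899. For Plin1 they were Suclg1 (0.941), a subunit of the citric acid cycle enzyme succinyl-CoA ligase, and Cisd1 (0.935), a protein of the outer mitochondrial membrane. For Plin4 they were Acadvl (0.855), which starts the oxidation of long fatty acids, and Acsl1 (0.848), which links fatty acids to coenzyme A. For Cidec they were Pck1 (0.925), which in fat cells serves the making of glycerol 3-phosphate from pyruvate, and Ephx2 (0.908). For G0s2 they were Uqcc (0.848) and Clstn3 (0.836), and for Lipe Ubox5 (0.88) and Zkscan5 (0.871). Without the HF75 array of Week 3 the r of Uqcc with G0s2 was 0.693 and that of Ubox5 with Lipe 0.719. The genes most like Mgll were Sars (0.789) and Camk2n2 (0.783), those most like Abhd5 D6Wsu163e (0.825) and Pex3 (0.824), those most like Plin2 Gm16378 (0.803) and LOC100046085 (0.794), and those most like Pnpla2 Gm9108 (0.867) and LOC676483 (0.864). Without subtracting class means, the r of the pairs named here ranged from 0.174 (Mgll and Sars) to 0.976 (Plin1 and Cisd1). It was 0.351 for Plin2 and LOC100046085 and 0.431 for Plin4 and Acadvl.

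Other genes of the pathway were followed as a list of 47, of which 46 were on the array and tested. Between HFC and LFC 0 of the 46 passed. The smallest p belonged to genes that handle the products of lipolysis: Pck1 was 1.16 higher in HFC (SE 0.24, p 0.00044, adjusted p 0.652), Gpd1, which makes glycerol 3-phosphate, 0.90 (SE 0.35), and Gk, the glycerol kinase, 1.15 (SE 0.46). In HF5, HF20 and HF75 against HFC 0 of the 46 passed. The smallest p in HF5 was that of Angptl4 (0.72, SE 0.35), an inhibitor of lipoprotein lipase, in HF20 that of Ces1d (2.76, SE 0.996), a carboxylesterase, and in HF75 that of Gnas (-1.06, SE 0.34, adjusted p 0.531), the stimulatory G protein that couples beta-adrenergic receptors to cyclic AMP.

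Among the doses 14 of the 46 passed, against 13.7% of all genes. In HF75 against HF20 25 of the 46 were lower and 1 higher, against 13% of all genes lower and 12.9% higher. By estimate 36 of the 46 were lower. With the brightness class as a term 0 of the 46 passed and 0 genes of all, and without the HF75 array of Week 3 10 were lower and 0 higher, against 4.69% of all genes lower and 4.39% higher. The values of single genes that follow include that array and have no term for brightness. The signal to lipolysis had 8 of 11 lower, among them Gnas (-1.75, SE 0.34, adjusted p 0.0134), the adenylyl cyclase Adcy3 (-2.86, adjusted p 0.0148) and the receptors Adrb1 (-3.35, adjusted p 0.0166) and Adrb3 (-3.09, adjusted p 0.0234). The transcription factor Ppara was lower by -4.55 (SE 1.03, adjusted p 0.0144), and its coactivator Ppargc1a by -3.25 (adjusted p 0.0169). Of 8 lipases and their regulators 5 were lower, with Ces1d at -4.11 (adjusted p 0.0146), and of 9 genes for the products 5 were lower, with Dgat1 at -2.58 (adjusted p 0.0181). Of 14 genes of the droplet coat and its formation 5 were lower, with Bscl2 (seipin) at -2.98 (adjusted p 0.0146), and Hilpda, an inhibitor of Pnpla2, was higher by 1.40 (SE 0.46, adjusted p 0.032). Over days on diet Aup1 (-0.07 per week, adjusted p 0.0329) and Gnas (-0.08 per week, adjusted p 0.0425) passed as falling, and for the product of diet and day 0 of the 46 did.

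The 250 bases before the start site of Plin5 and Plin1, the coat proteins with the largest difference between HF75 and HF20, are shown from RefSeq on GRCm38.p6. CCAAT and its reverse complement ATTGG are in capitals.
Plin5, chr17:56117549-56117798, minus strand: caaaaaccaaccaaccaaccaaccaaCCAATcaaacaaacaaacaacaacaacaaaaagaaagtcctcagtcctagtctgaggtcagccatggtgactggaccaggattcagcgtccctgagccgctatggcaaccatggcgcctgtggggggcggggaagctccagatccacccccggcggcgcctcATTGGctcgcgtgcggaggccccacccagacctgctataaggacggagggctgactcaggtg
Plin1, chr7:79732777-79733026, minus strand: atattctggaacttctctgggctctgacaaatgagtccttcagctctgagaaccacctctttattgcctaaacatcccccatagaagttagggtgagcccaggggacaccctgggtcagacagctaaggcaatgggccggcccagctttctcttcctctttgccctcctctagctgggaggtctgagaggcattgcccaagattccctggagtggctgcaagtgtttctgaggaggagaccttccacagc
Plin5 and Plin4 are neighbours on chromosome 17. In windows from 250 bases before the start site to 50 after it, CCAAT was found on either strand in 37.4% of 32851 windows and in 3 of the 14 windows of the 10 genes, those of Plin2, Plin4 and Plin5. The Plin1 window does not hold it. The PPAR direct repeat, a pair of AGGNCA with 1 base between them (0.381% of windows), the cyclic AMP response element TGACGTCA (1.79%) and TATAAA (13.6%) were found in 0 of the 14.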

How the data were processed

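Brown adipose RNA was measured on 38 single-colour (Cy3) Agilent arrays, 1 per group and labelled time point. The authors deposited the scanner output, in which each spot has a processed signal intensity, already background-subtracted by the scanner software (10.5.1.1 per the file headers, Agilent Feature Extraction 9.1 in the submitters' processing notes). The authors also deposited a table of log2 values in which each array is set against the LFC array of its day or week, used here only as an alternative and without Week 15, whose columns are out of order. The paper given with these data analyses liver of the same feeding experiment.

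Control spots and spots flagged as outliers were left out, saturated spots were kept, and log2 of the processed signal minus the 75th percentile of the array was taken. Genes had 1 probe each, that with the highest mean, well above background on at least 6 of 38 arrays. Arrays were classed as bright above a 75th percentile of 600. The number of arrays limits the precision.

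Comparisons were fitted in R 4.3.3 with limma 3.58.1 (lmFit and eBayes, two-sided, Benjamini-Hochberg over 21625 genes, threshold 0.05), with the time point as a block, and with diet and days on diet (14 plus 7 per labelled week) for the trend. Time points are the only replicates, so the block pairs arrays by their labelled time point. The code was tested on simulated data. Weeks 3 to 18 were fitted with all 5 groups (30 arrays).

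The 10 genes, the pathway list and the marker lists were chosen with earlier results of these data known. By the rule for named genes, all 10 were named in each main comparison, other pathway genes where they passed or had the smallest p, and the 2 genes most like each of the 10. Alternatives were quantile normalization, normexp background correction with an offset of 50, brightness as a term, other filters, all probes, slide or scan day as a random block, array weights, no block, Day 14 joined with Week 0, the deposited table, all 38 arrays in 1 fit and leaving out each time point. The alternatives without the HF75 array of Week 3 and within time points of 1 brightness class, and all alternatives for HF75 against HF20, were added after seeing the data. No chance test over gene lists was made.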

Additional observations from a re-analysis of the deposited data

Results flagged for a closer look

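In 5 of 50 groups of values (10 genes in 5 groups) the highest or lowest array lay far from the rest by Dixon's ratio, the gap to the nearest value over the range of the group. Chance sets apart about 1 in 20 groups. Plin5 in HF75 was at -1.37 at Week 3 and next at 2.01 (ratio 0.801), on the array with low brown adipocyte markers. Cidec in HF20 was at 7.01 at Week 9 and next at 6.40 (ratio 0.698), and the 4 bright HF20 arrays, all saturated for Cidec, lay below it. Lipe in HF5 was at 3.10 at Week 6 and next at 1.91 (ratio 0.677). Abhd5 in HF5 was at -2.77 at Week 12 and next at -1.08 (ratio 0.670). Plin4 in HFC was at 6.71 at Week 3, on a bright array where it was saturated, and next at 4.99 (ratio 0.577).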

How the results depend on the processing

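Of 112 counts of genes passing (outside leaving out time points), 101 stayed within 1.5 times the value reported. Counts of 0 that stayed 0 are among these 101. Only the counts among the doses and for HF75 against HF20 were above 0 as first reported. The count among the doses, 4 of 10, was 0 with normexp, 0 with brightness as a term, 0 with no filter on dim probes, 1 with every probe tested, 2 with no replicate block for time point and 0 without the HF75 array of Week 3. HF75 against HF20, 6 of 10, gave 0 with normexp, 0 with brightness as a term, 0 within time points of 1 brightness class and 2 without that array. HF20 against HFC went from 0 to 5 with array weights (5056 of all genes). Leaving out time points in turn gave 0 to 3 for HF20 against HFC, 0 to 5 for the doses and 0 to 6 for HF75 against HF20. Slide or scan day as a random block left each count within 1.5 times. With brightness as a term 0% of all genes passed among the doses and in HF75 against HF20. Within time points of 1 brightness class 0% of all genes passed in HF75 against HF20. Where no count over all genes is given, a changed count is not a result about the 10 genes alone. The causes were not tested.

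Of 270 values of the 10 genes against LFC or HFC, 227 kept their direction and 43 reversed, none of which was called. With quantile normalization: Pnpla2 -0.14 (HFC against LFC, Weeks 3 to 18), Abhd5 0.067, Plin4 -0.46 and Cidec -0.11 (HF5), and Abhd5 0.19 (HF75). With normexp: Pnpla2 -0.29 and Plin5 -0.072 (Weeks 3 to 18), Pnpla2 0.23 (HF5), Mgll 0.11 (HF20) and -0.16 (HF75). With brightness as a term: Abhd5 0.17, G0s2 0.51, Plin1 0.64 and Plin4 0.57 (10 time points), 0.11, 0.82, 0.96 and 0.76 (Weeks 3 to 18), Pnpla2 0.15, Lipe 0.051, Abhd5 0.069, Plin1 0.32 and Plin5 0.018 (HF5), and Mgll 0.18, Abhd5 -0.053 and Cidec -0.10 (HF20). With the mean of the probes: Pnpla2 -0.0071 (10 time points) and -0.16 (Weeks 3 to 18). Within time points of 1 brightness class: Mgll -0.10, Abhd5 0.063, G0s2 0.37, Plin1 0.63 and Plin4 0.57 (HFC against LFC), Pnpla2 0.31, Lipe 0.22, Abhd5 0.051, G0s2 0.23, Plin1 0.57 and Plin5 0.43 (HF5), and Mgll 0.38, Abhd5 -0.18 and Plin4 -0.038 (HF20). Without the HF75 array of Week 3, Abhd5 was 0.088 (HF75).

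Leaving out time points reversed the sign of these: Abhd5 (-0.31 to 0.029), G0s2 (-0.75 to 0.33) and Plin1 (-0.60 to 0.26) over 10 time points, Pnpla2 (-0.11 to 0.19), G0s2 (-0.69 to 0.19), Plin1 (-0.76 to 0.28) and Plin4 (-0.55 to 0.28) over Weeks 3 to 18, Pnpla2 (-0.27 to 0.31), Lipe (-0.35 to 0.22), Abhd5 (-0.37 to 0.13), G0s2 (-1.12 to 0.23), Plin1 (-0.63 to 0.57), Plin4 (-0.13 to 0.75) and Plin5 (-0.89 to 0.43) in HF5, Mgll (-0.57 to 0.054) in HF20, and Mgll (-0.053 to 0.45) and Abhd5 (-0.31 to 0.20) in HF75. In HF5 the highest value of each of these but Abhd5 came without Week 3.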
